A study of Mus musculus with 6 samples.

Results

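Chemokine ligands were read from every non-control probe whose whole gene name on the array was Ccl, Cxcl or Cx3cl with a number and at most 1 suffix letter. The rule used names and no measured value, and it took 43 of the 41174 non-control probes, for 34 gene names, 7 of them with more than 1 probe. Levels were read in primary fibroblasts of mouse embryos, connective tissue cells grown from minced embryos of day 15 by the sample labels, on 6 two-colour arrays that carried 1 cRNA in the green dye Cy3 and another in the red dye Cy5. Wild type cells treated with 0.5 mM H2O2 for 1 hour and left to recover for 24 hours were set against untreated wild type cells (2 arrays). Wrn Δhel/Δhel mutant cells, in which both alleles lack part of the helicase of Wrn, the mouse counterpart of the Werner syndrome gene, in frame and in every cell of the embryo, were treated and compared in the same way (2 arrays). Both genotypes without treatment were hybridised together on 2 further arrays, replicates 3 and 4, called the direct arrays here. The mutant mice had a mixed genetic background, and the sources used here do not give the number of embryos behind a culture. The treated cRNA carried Cy5 on all 4 treatment arrays, so the preference of a probe for 1 dye enters every ratio.

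Chemokines are small secreted proteins that set up gradients along which cells with the matching G protein-coupled receptors move. Most CC ligands draw monocytes, eosinophils or lymphocytes, CXC ligands with an ELR motif draw neutrophils, and CXCL12 is made constantly by stromal cells. Fibroblasts release CCL2, CCL7, CXCL1 and CXCL2 when NF-kappaB or interleukin signalling is active, and CX3CL1 and CXCL16 are made as membrane-anchored proteins that proteases shed.

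The sequences just upstream of 6 of the chemokine genes described further on are shown, with an NF-kappaB match in 4 of them. Other described genes with a promoter entry are not printed. Among these, Ccl8, Ccl17, Ccl25, Cxcl14 and Cxcl15 held no NF-kappaB match, so the printed 6 do not stand for the described genes. Ccl2, Ccl7 and Cxcl16 had no entry. Each run is the 250 bases before the transcription start in RefSeq (GRCm38.p6), read 5′ to 3′ along the gene, and capitals mark matches on either strand to the NF-kappaB consensus or to the AP-1 motif TGANTCA.
Ccl20 (chr1:83116516-83116765, plus strand): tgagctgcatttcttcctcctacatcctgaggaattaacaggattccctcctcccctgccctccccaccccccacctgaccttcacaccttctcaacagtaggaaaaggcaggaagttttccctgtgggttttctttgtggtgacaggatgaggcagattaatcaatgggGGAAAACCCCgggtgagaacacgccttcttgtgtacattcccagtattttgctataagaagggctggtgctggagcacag
Cxcl1 (chr5:90890995-90891244, plus strand): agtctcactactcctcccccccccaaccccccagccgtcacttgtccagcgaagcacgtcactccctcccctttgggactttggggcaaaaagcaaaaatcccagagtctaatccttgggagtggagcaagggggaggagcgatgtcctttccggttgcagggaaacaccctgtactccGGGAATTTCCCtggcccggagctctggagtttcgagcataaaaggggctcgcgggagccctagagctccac
Cxcl2 (chr5:90903649-90903898, plus strand): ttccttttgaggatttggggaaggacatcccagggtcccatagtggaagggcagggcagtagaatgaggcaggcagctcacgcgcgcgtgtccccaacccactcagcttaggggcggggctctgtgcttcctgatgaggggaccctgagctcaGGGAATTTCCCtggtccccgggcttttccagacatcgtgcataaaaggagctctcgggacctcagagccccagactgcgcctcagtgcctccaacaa
Ccl9 (chr11:83578637-83578886, minus strand): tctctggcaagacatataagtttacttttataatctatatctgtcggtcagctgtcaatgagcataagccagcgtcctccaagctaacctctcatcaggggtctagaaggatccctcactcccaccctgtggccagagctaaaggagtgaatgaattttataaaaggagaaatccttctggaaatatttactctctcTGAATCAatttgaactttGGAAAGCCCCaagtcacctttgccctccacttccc
Cx3cl1 (chr8:94771930-94772179, plus strand): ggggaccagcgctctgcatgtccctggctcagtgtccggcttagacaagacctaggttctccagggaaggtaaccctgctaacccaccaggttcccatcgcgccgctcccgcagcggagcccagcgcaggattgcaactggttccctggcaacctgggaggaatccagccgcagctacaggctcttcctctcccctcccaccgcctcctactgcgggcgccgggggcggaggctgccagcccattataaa
Cxcl12 (chr6:117168285-117168534, plus strand): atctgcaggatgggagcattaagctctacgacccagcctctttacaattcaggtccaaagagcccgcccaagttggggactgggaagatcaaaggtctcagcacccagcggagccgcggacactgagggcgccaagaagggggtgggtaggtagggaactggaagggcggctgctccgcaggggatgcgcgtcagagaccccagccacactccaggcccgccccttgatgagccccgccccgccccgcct
The table of promoters held 27 starts for 24 of the 34 chemokine genes. Of these 27 upstream windows, 5 held an NF-kappaB match (Ccl20, Ccl9, Cxcl1, Cxcl10 and Cxcl2), beside 3.9% of the 32851 windows of the same length for all genes. The AP-1 motif was found in 4 of the 27 windows (Ccl9, Ccl27a, Cxcl10 and Ppbp) and in 6.75% of all windows. In Cxcl1 a pair of overlapping NF-kappaB matches covered positions −71 to −61 from the start, and in Cxcl2 a pair covered −97 to −87. The Ccl20 match lay at −80 to −71. In Ccl9 the AP-1 match lay at −53 to −47 and the NF-kappaB match at −35 to −26. No match was found in the printed windows of Cx3cl1 and Cxcl12. A match describes the letters of the window and nothing about binding.

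Chemokine probes were above background far more often in Cy3 than in Cy5. The image analysis software marked a spot as well above background where its signal stood clear of the local background in that dye, and 15 of the 43 probes, for 13 genes, met this in both dyes on all 6 arrays. These genes were Ccl2, Ccl5, Ccl7, Ccl9, Ccl19, Ccl20, Ccl24, Ccl25, Cx3cl1, Cxcl1, Cxcl2, Cxcl12 and Cxcl16. In Cy3 alone 27 probes stood above background on all 6 arrays, whereas 13 probes, for 11 genes, never did so in Cy5. Those 11 genes included the interferon-induced ligands Cxcl9 and Cxcl10, the B cell chemokine Cxcl13, and Ccl4, Ccl6, Ccl12, Ccl22 and Cxcl5. Ccl22 alone was above background in neither dye on any array, and no chemokine spot was saturated.

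**Figure D1:**
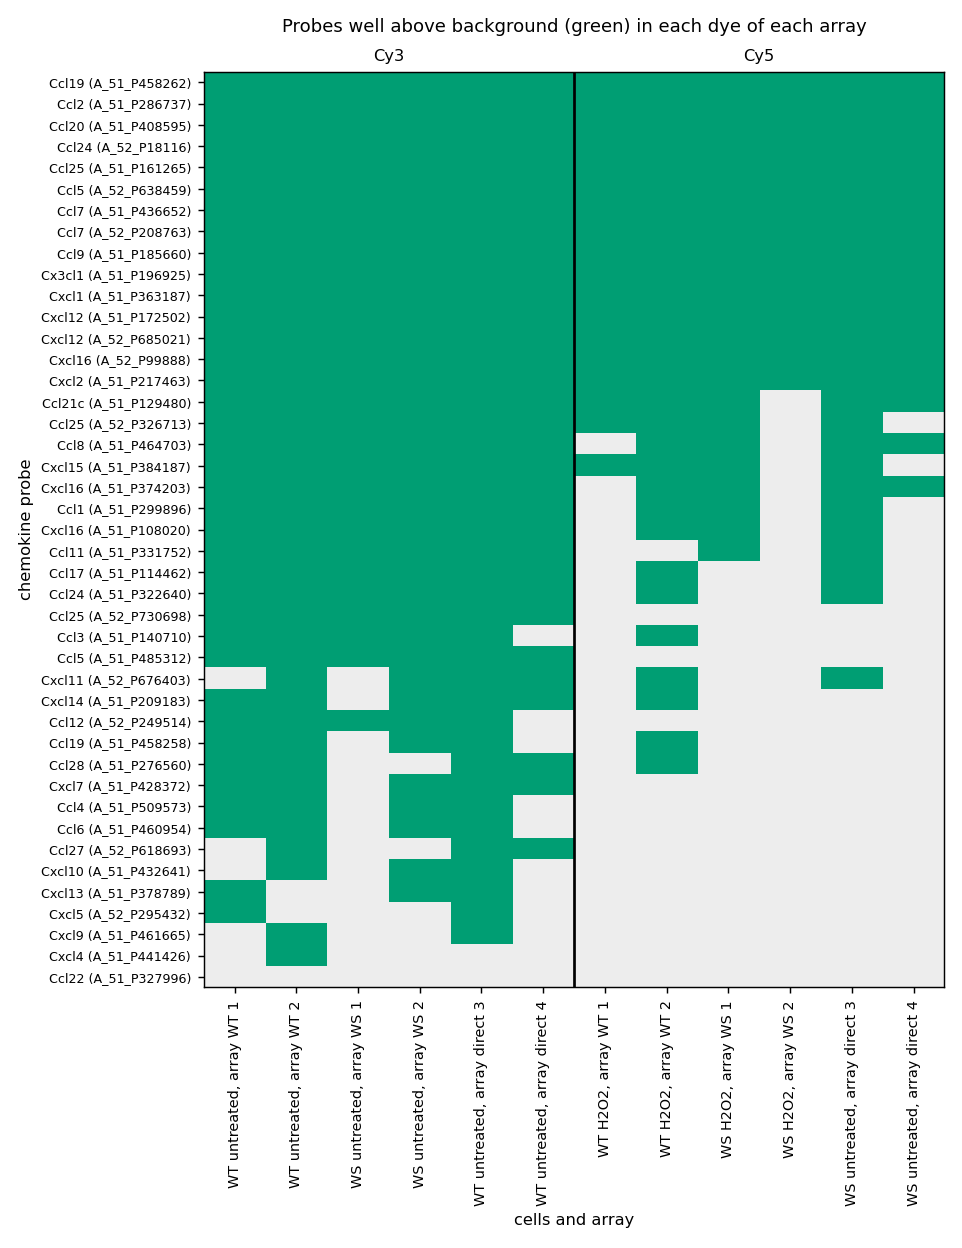
Each row is 1 of the 43 chemokine probes and each column 1 dye of 1 array (Cy3 to the left of the black line, Cy5 to the right); green marks a spot well above background. The top 15 rows are green throughout, and fewer cells are green in Cy5 than in Cy3.

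The share of all probes above background ran from 75.8% to just under 90% in Cy3 and from 41.5% to 69.2% in Cy5, and the chemokine probes lay near it, from 67.4% to 95.3% in Cy3 and from 34.9% to 67.4% in Cy5. Array 2 of treated wild type cells stood apart, since 22.6% of all its spots and 11 of its chemokine probes were marked as outliers, against 0.400% to 8.81% of spots and 0 to 3 chemokine probes on the other arrays. Outlier spots were left out, so the wild type response of Ccl1, Ccl2, Ccl17, Ccl21c and of 1 probe each of Ccl5, Ccl7, Ccl19, Ccl24, Ccl25 and Cxcl16 rests on array 1 alone, and that of 1 Cxcl12 probe could not be given. With 2 arrays in each comparison, the precision of all values is low. Ccl21c shares near-identical sequence with other Ccl21 genes and Ccl27 with its own copy, so signal of these probes cannot be assigned to 1 copy. On the array 3 names are older, and Cxcl4, Cxcl7 and Ccl27 are Pf4, Ppbp and Ccl27a in RefSeq.

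Chemokine probes differed between the genotypes before any treatment. In untreated mutant cells the monocyte attractants Ccl2 and Ccl7 were 7.11-fold and 5.95-fold higher than in wild type cells. Another Ccl7 probe read 3.42-fold higher on 1 direct array. The membrane-anchored Cx3cl1 was 4.40-fold higher. Cxcl16, also membrane-anchored, was 3.59-fold higher by probe A_52_P99888 and 2.42-fold by A_51_P374203, and its probe A_51_P108020 was not called (log2 ratio 0.42). Cxcl12, the stromal ligand of Cxcr4, was 2.70-fold lower by 1 probe and 8.35-fold lower by the other. Ratios are log2 of Cy5 over Cy3 after background subtraction and loess, and a probe was called where limma's p, adjusted by Benjamini-Hochberg over all probes, was under 0.05. The direction of the direct arrays is likely rather than settled: mutant over wild type is how the study's own table of this comparison runs when set against Cy5 over Cy3, but the sample labels put wild type cRNA in Cy5, and under that reading every sign of the direct arrays turns. On the treatment arrays, where labels and methods give the same dyes, mutant minus wild type within Cy3 had the same sign for 16 of 17 called chemokine probes and for 89.7% of the 7887 called probes of the whole array.

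With that direction, 18 of the 43 chemokine probes (14 genes) were called, 10 higher and 8 lower in the mutant, while 19.6% of all probes were called, 9.83% higher and 9.78% lower. The median log2 ratio was 0.14 over the 43 chemokine probes and −0.00 over all probes. At the study's own thresholds (a mean log2 intensity of at least 6 and an adjusted p under 0.005), 6 chemokine probes were called, 4 higher and 2 lower, against 1.76% of all probes. These were Ccl2, Ccl7, Cx3cl1, 1 probe of Cxcl16 and both probes of Cxcl12. Fitted on the direct arrays alone, 9 chemokine probes were called (6 higher, 3 lower), against 5% of all probes (2.46% higher, 2.54% lower), and to those 6 this fit added Ccl8, Ccl20 and Ccl21c. Of the 13 genes above background everywhere, 9 had a called probe, and Ccl5, Ccl19, Ccl24 and Cxcl1 had none. The shares above are for probes without this filter, so that count does not set chemokines apart from other probes.

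**Figure D2:**
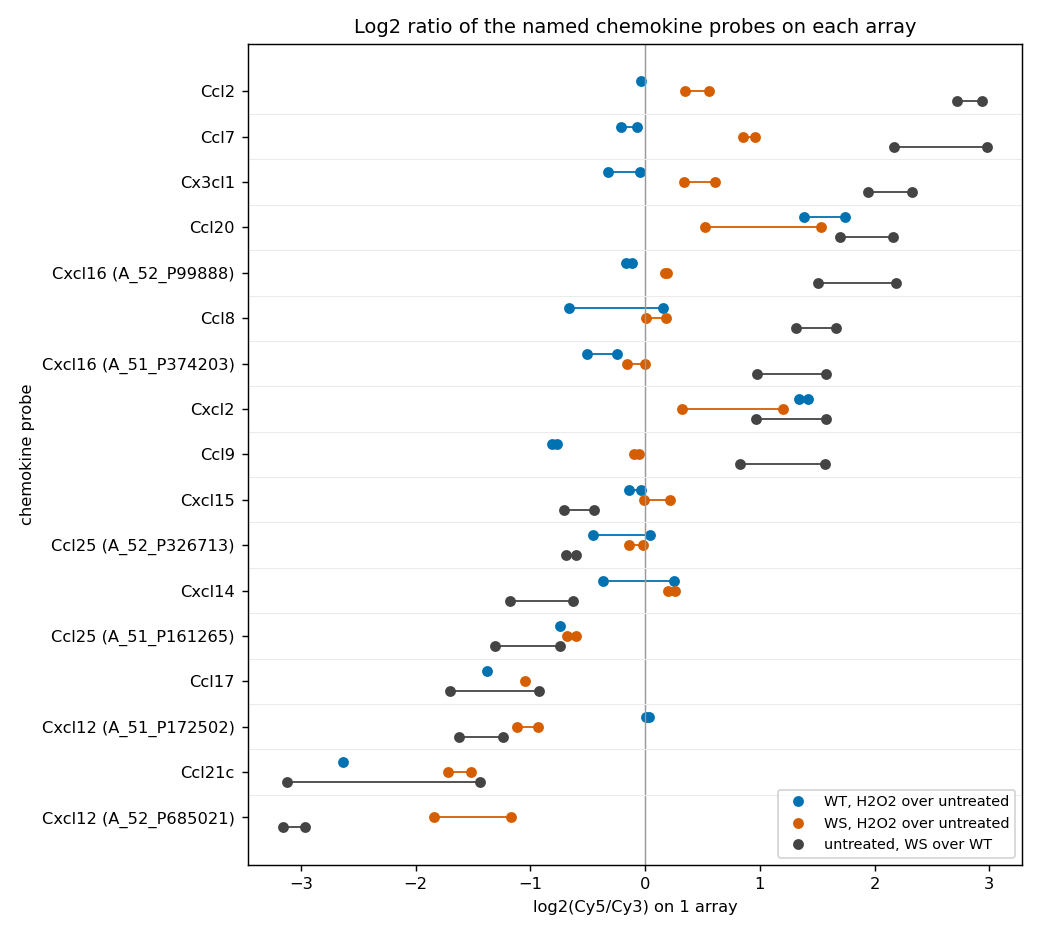
Log2(Cy5/Cy3) of the 17 named chemokine probes on each array, with a point per array and a line between the 2 arrays of a comparison. Blue is treated over untreated wild type, orange treated over untreated mutant, and grey untreated mutant over wild type; Ccl2, Ccl7 and Cx3cl1 lie far to the right on the direct arrays only, whereas Ccl20 and Cxcl2 are above 0 and Ccl21c and Ccl17 below 0 on every array with a value.

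Ccl2, the main attractant of monocytes through Ccr2, gave log2 ratios of 2.94 and 2.72 on the direct arrays. The treatment arrays gave −0.04 in wild type cells, with array 2 left out as an outlier, and 0.56 and 0.35 in mutant cells. Ccl2 was therefore high in mutant over wild type cells on both direct arrays and near 0 or slightly above on the others. The difference was 2.83 ± 0.17 on the log2 scale (SE, n = 2 arrays; limma, adjusted p = 0.0010). Within Cy3, wild type cells read 9.55 (log2 intensity, 1 array) and mutant cells 11.80 and 12.71, and the difference was 2.71 ± 0.53 (adjusted p = 0.041). That test set 1 wild type array against 2 mutant arrays and took the spread of the lone array to be like that of the others. With the outlier spot of wild type array 2 kept, wild type cells read 9.55 and 10.06, mutant cells 12.08 and 12.36, and the difference was 2.41.

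Ccl7 binds Ccr2 and Ccr1 and its gene is next to Ccl2 in RefSeq. Probe A_51_P436652 gave 2.98 and 2.17 on the direct arrays, −0.21 and −0.07 in treated wild type cells and 0.96 and 0.85 in treated mutant cells. Both direct arrays were high and the treatment ratios lay on opposite sides of 0 in the 2 genotypes. The difference between the untreated genotypes was 2.57 ± 0.22 (SE, n = 2 arrays; limma, adjusted p = 0.0014), and within Cy3 it was 1.99 ± 0.43 (adjusted p = 0.064). The second Ccl7 probe had a value on 1 direct array only, 1.77 (adjusted p = 0.024).

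Ccl2 and Ccl7 open a run of 5 chemokine genes in a row on chromosome 11 in RefSeq, followed by Ccl11, Ccl12 and Ccl8. Ccl8, another ligand of monocytes, was higher in the mutant at 1.67 and 1.31 on the direct arrays, or 1.49 ± 0.23 (adjusted p = 0.0072, limma). Within Cy3 it read 4.49 and 6.0 in wild type and 5.46 and 5.45 in mutant cells, so the groups overlapped, and the difference was 0.21 (adjusted p = 0.91). Ccl11, the eosinophil attractant eotaxin, gave 0.58 and 0.46 on the direct arrays and missed the threshold (0.52 ± 0.16, adjusted p = 0.063). Ccl12, a mouse monocyte chemoattractant, had 1 direct value, 0.15, and never stood above background in Cy5. The 5 neighbours thus ran from 2.83 down to 0.15 in log2 ratio.

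Ccl9, a ligand of Ccr1, gave 1.57 and 0.82 on the direct arrays, −0.77 and −0.81 in treated wild type cells and −0.10 and −0.05 in treated mutant cells. It was above 0 on the direct arrays and below 0 on all 4 treatment arrays. The difference between untreated genotypes was 1.20 ± 0.20 (limma, adjusted p = 0.010) and within Cy3 0.86 ± 0.40 (adjusted p = 0.49).

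Ccl20, which draws cells with Ccr6, and Cxcl2, a neutrophil attractant acting through Cxcr2, behaved alike in sign. Ccl20 gave 1.70 and 2.16 on the direct arrays, 1.74 and 1.39 in treated wild type cells, and 0.52 and 1.53 in treated mutant cells. Cxcl2 gave 0.96 and 1.58 on the direct arrays, 1.42 and 1.34 in treated wild type cells, and 0.32 and 1.20 in treated mutant cells. Both were above 0 on all 6 arrays, as were Ccl4, Cxcl10 and Cxcl11 with smaller ratios, so a preference for Cy5 and a difference between the cells cannot be told apart in the ratios alone. The untreated difference was 1.93 ± 0.26 for Ccl20 (adjusted p = 0.0055) and 1.27 ± 0.25 for Cxcl2 (adjusted p = 0.016; limma, n = 2 arrays). Within Cy3, Ccl20 read 5.49 and 5.13 in wild type against 6.34 and 6.69 in mutant cells, and Cxcl2 5.06 and 4.71 against 5.73 and 5.80. The groups did not overlap for either gene, but neither difference passed (1.20, adjusted p = 0.29, and 0.88, adjusted p = 0.46).

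The membrane-anchored ligands rose with them on the direct arrays. Cx3cl1, or fractalkine, gave 2.33 and 1.95, and its treatment ratios were −0.32 and −0.04 in wild type and 0.61 and 0.34 in mutant cells. Its difference was 2.14 ± 0.18 (adjusted p = 0.0014, limma). Within Cy3, wild type cells read 6.78 and 8.08 and mutant cells 8.15 and 8.14, and the difference was 0.71 ± 0.45 (adjusted p = 0.62). With outlier spots kept before the arrays were scaled to each other, wild type array 2 read 7.26 in place of 8.08 and the difference was 1.18.

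Cxcl16, the ligand of Cxcr6, was covered by 3 probes that differed in size. Probe A_52_P99888, above background everywhere, gave 2.18 and 1.51 on the direct arrays, and its treatment ratios lay between −0.17 and 0.19. Its difference was 1.85 ± 0.19 (adjusted p = 0.0026, limma). Probe A_51_P374203 gave 1.28 (adjusted p = 0.0073) but −0.24 within Cy3, the only called chemokine probe whose sign turned there. Probe A_51_P108020 gave 0.42 (adjusted p = 0.12).

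Cxcl12 was the clearest chemokine in the opposite direction. Probe A_51_P172502 gave −1.24 and −1.62 on the direct arrays, 0.04 and 0.00 in treated wild type cells and −1.11 and −0.94 in treated mutant cells. Probe A_52_P685021 gave −3.16 and −2.97 on the direct arrays and −1.17 and −1.84 in treated mutant cells, and was marked as an outlier on both wild type treatment arrays. Ratios were low wherever mutant cells were in Cy5. Between treated and untreated wild type cells the first probe was near 0, and the second gave −0.82 and −0.78 with its outlier spots kept. The untreated difference was −1.43 ± 0.17 (adjusted p = 0.0034) and −3.06 ± 0.21 (adjusted p = 0.0015) for the 2 probes (limma, n = 2 arrays). Within Cy3, wild type cells read 10.63 and 10.54 and mutant cells 8.54 and 8.70, and the difference was −1.96 ± 0.38 (adjusted p = 0.035).

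The other called probes that were lower in the mutant included 3 that were below 0 on every array with a value. Ccl21c, which guides lymphocytes and dendritic cells through Ccr7, gave −3.12 and −1.44 on the direct arrays, −2.63 in treated wild type cells and −1.72 and −1.52 in treated mutant cells. Ccl17, a ligand of Ccr4, gave −1.70 and −0.93, then −1.38 and −1.05 on 1 array of each treatment. Ccl25, the thymus and gut ligand of Ccr9, gave −1.31 and −0.74 by probe A_51_P161265, then −0.74 in wild type and −0.60 and −0.68 in mutant cells. All 3 were called (−2.28, adjusted p = 0.013; −1.31, adjusted p = 0.025; −1.02, adjusted p = 0.019), yet dye preference and genotype cannot be told apart in such ratios.

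A measure of the dye is the untreated mutant level in Cy5 of the direct arrays minus that in Cy3 of the treatment arrays, which holds genotype and treatment the same but comes from different cultures. It was −2.14 for Ccl21c, −0.96 for Ccl17 and −0.45 for Ccl25, against −0.22 for Ccl2, 0.04 for Ccl7, 0.27 for Cxcl12 (A_51_P172502), 0.36 for Ccl20, 0.37 for Cxcl2 and 0.42 for Cx3cl1. Untreated wild type levels, in Cy3 on both sets of arrays, also differed between the direct and the treatment arrays, by −0.34 for Ccl2, −0.54 for Ccl7, −0.26 for Cxcl12 (A_51_P172502), −1.01 for Cx3cl1 and −0.43 for Ccl21c. Dye, culture and array therefore cannot be told apart in this measure. Within Cy3 the genotype differences of Ccl21c, Ccl17 and Ccl25 were −0.57, −0.53 and −0.38, and none passed. The remaining lower calls were a second Ccl25 probe (−0.65, adjusted p = 0.044), Cxcl14, which is made by epithelia and fibroblasts (−0.91, adjusted p = 0.029), and the lung chemokine Cxcl15 (−0.58, adjusted p = 0.048; limma). Cxcl14 was not well above background in the mutant cells of either direct array, where wild type was at least 1.35-fold higher, a bound set by the dimmest signal above background.

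**Figure D3:**
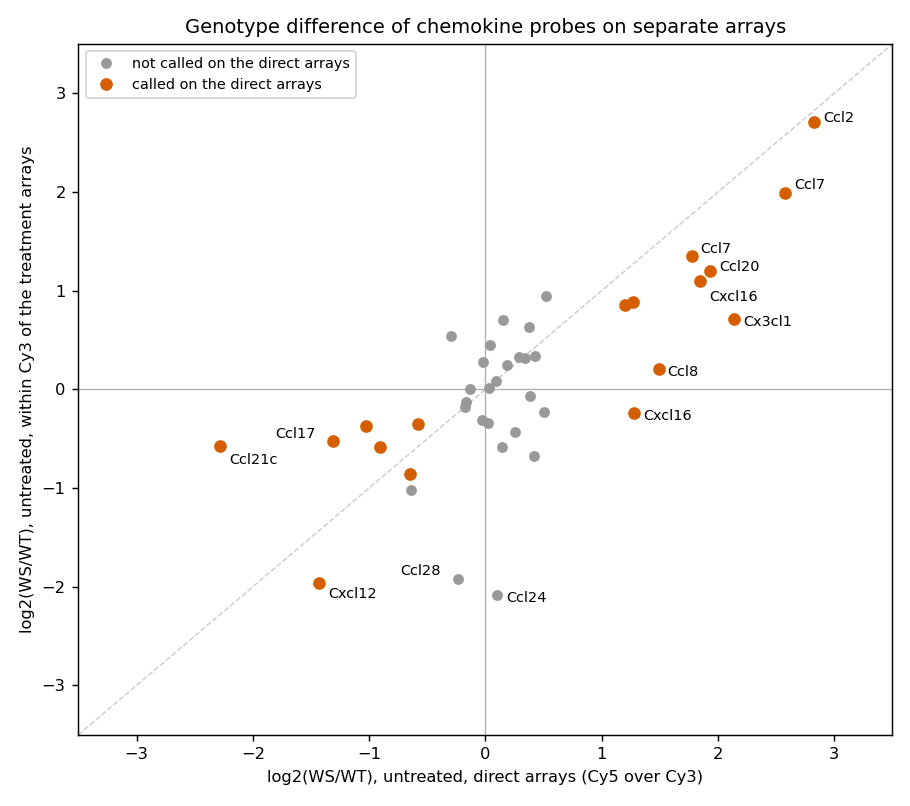
Each point is 1 of 42 chemokine probes, with log2(mutant/wild type) in untreated cells on the direct arrays (x axis) and within Cy3 of the treatment arrays (y axis); orange points were called on the direct arrays and the dashed line marks equal values. Ccl2, Ccl7 and Cxcl12 lie far from 0 on both axes, Ccl21c far from 0 on the x axis only, and Ccl24 and Ccl28 on the y axis only.

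Within Cy3 of the treatment arrays, 2 of 42 chemokine probes were called, Ccl2 higher and Cxcl12 lower, against 0.534% of all probes, and 13 had an unadjusted p under 0.05, beside 10.2% of all probes. A probe of Ccl24, an eosinophil attractant, gave −2.08 (adjusted p = 0.36) and Ccl28, a mucosal ligand, −1.92 (adjusted p = 0.29), against 0.10 and −0.23 on the direct arrays. For the Ccl24 probe wild type array 2 read 8.72 and array 1 5.16, with mutant cells at 4.82 and 4.90, so that difference rests on array 2, the array with the most outlier spots. The chemokine calls within Cy3 were lost without either mutant treatment array and grew in number without wild type array 1. In such fits 1 array stands for a genotype, and no share of all probes is given beside them.

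The remaining 20 genes had no called probe on the direct arrays. Of their probes and the uncalled probes of the other genes, 21 had a ratio on both direct arrays, and these lay between −0.29 and 0.52. Among them were the neutrophil attractant Cxcl1 (−0.29 ± 0.17, adjusted p = 0.26), Ccl3, Ccl4 and Ccl5, which are made by many leukocytes, and the Cxcr3 ligands Cxcl9, Cxcl10 and Cxcl11, of which Ccl4, Cxcl9 and Cxcl10 were never above background in Cy5.

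After H2O2, no chemokine probe passed the threshold in either genotype, and the largest responses measured on both wild type arrays were those of Ccl20 and Cxcl2. In wild type cells 0 of 42 probes were called by limma, beside 0.258% of all probes, and 11 had an unadjusted p under 0.05, beside 20% of all probes. Ccl20 came nearest to the threshold, with a log2 response of 1.56 ± 0.26 (adjusted p = 0.055), and Cxcl2 gave 1.38 ± 0.25 (adjusted p = 0.057). Cxcl1 gave 0.74 and 0.66 in wild type cells after H2O2 (0.70 ± 0.17, adjusted p = 0.091). In treated mutant cells Cxcl1 gave 0.12 and −0.35. Ccl9 gave −0.79 ± 0.20 in wild type cells (adjusted p = 0.097). The median over the chemokine probes was −0.05, and −0.01 over all probes.

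In mutant cells 0 of 43 probes were called, as were 0% of all probes, and 11 had an unadjusted p under 0.05, beside 12% of all probes. The largest responses measured on both arrays were −1.62 for Ccl21c, −1.51 and −1.02 for the probes of Cxcl12 (smallest adjusted p = 0.21), 1.03 for Ccl20 (adjusted p = 0.27), 0.90 for Ccl7 (adjusted p = 0.26) and 0.76 for Cxcl2 (adjusted p = 0.33). Ccl20 and Cxcl2 differed between the mutant arrays by about as much as their means.

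These zero counts depended on the arrays that shared the fit. The spread was estimated over all 6 arrays, and when each comparison was fitted on its own arrays, 11 chemokine probes were called in wild type cells (6 higher, 5 lower), beside 25.1% of all probes (12.3% higher, 12.8% lower). In mutant cells 8 were called that way (3 higher, 5 lower), beside 10.7% of all probes (4.61% higher, 6.06% lower). Chemokine probes were also called when either direct array alone was left out. No share of all probes is given for those fits, so they do not set chemokines apart from other probes. The 6 that were higher in wild type cells were Ccl20, Cxcl2, Cxcl1, Cxcl5, Ccl22 and Ccl4, of which Ccl4 and Cxcl5 were never above background in Cy5 and Ccl22 in neither dye. The 5 lower ones were Ccl9, measured on both arrays, and Ccl21c, Ccl17, Ccl25 (A_51_P161265) and a Ccl7 probe, each measured on wild type array 1 alone. With outlier spots kept, array 2 gave −0.33 for Ccl21c, −0.14 for Ccl17, 0.03 for Ccl25 and −0.62 for the Ccl7 probe. In mutant cells Ccl7, Ccl20 and Cxcl2 were higher. Ccl21c, Ccl25 (A_51_P161265), both probes of Cxcl12, and Ccl17, measured on 1 mutant array, were lower. Ccl17, Ccl21c, Ccl25 and Cxcl12 (A_52_P685021) were below 0 on every array with a value, and Ccl20 and Cxcl2 above 0. For these probes dye preference and response cannot be told apart in the ratios.

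The response was compared between the genotypes directly. 0 of 42 chemokine probes was called, as for 0% of all probes, and 8 had an unadjusted p under 0.05, beside 5.94% (limma). The largest differences measured on all 4 treatment arrays were −1.05 ± 0.24 for Cxcl12 (A_51_P172502), whose adjusted p was 0.64, and 1.04 ± 0.30 for Ccl7 (adjusted p = 0.73). Fitted on the 4 treatment arrays alone, those 2 were called (adjusted p = 0.032 for each), beside 1.27% of all probes (0.728% higher, 0.546% lower), and they were also called when either direct array was left out.

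Treated mutant cells were set against treated wild type cells within Cy5, which holds the dye the same. The 3 called probes of 42 were Ccl2 (3.20 ± 0.53, adjusted p = 0.035), Ccl7 (3.04 ± 0.45, adjusted p = 0.019) and Cxcl12 (−3.01 ± 0.39, adjusted p = 0.0095), beside 0.368% of all probes. The Ccl2 test set 1 treated wild type array, since array 2 was an outlier, against 2 mutant arrays, and with that spot kept the difference was 2.78. At an unadjusted p under 0.05 there were 10, beside 9.01% of all probes. Cxcl12 read 10.67 and 10.54 in treated wild type and 7.43 and 7.76 in treated mutant cells. Ccl7 read 8.87 and 9.41 against 11.72 and 12.64. The groups did not overlap for either gene. Ccl9 (1.57, adjusted p = 0.20), Cxcl16 (1.42 by A_52_P99888, adjusted p = 0.23) and Cx3cl1 (1.37, adjusted p = 0.45) were above 0 without passing. The chemokine calls of this test were lost without either mutant array and grew in number without either wild type array. There too 1 array stands for a genotype, and no share of all probes is given.

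**Figure D4:**
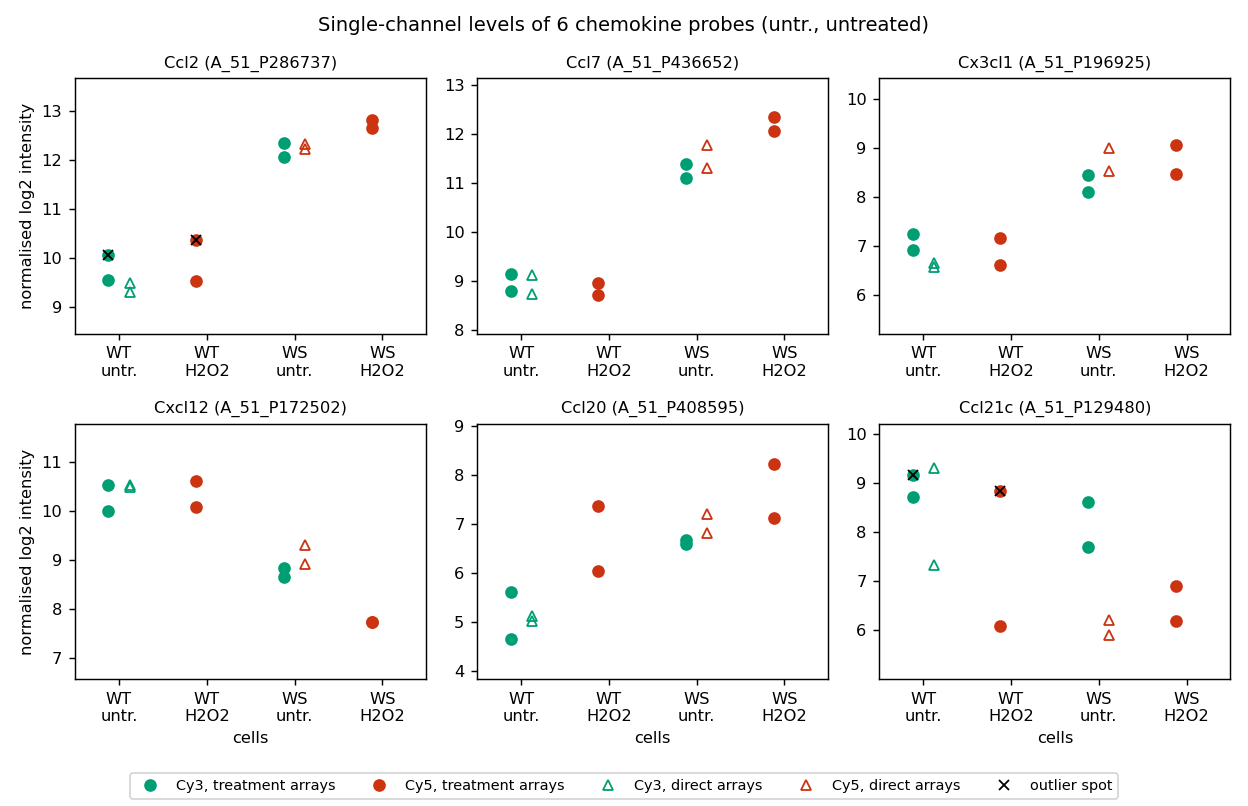
Normalised log2 intensity of 6 chemokine probes in the 4 kinds of cells, outlier spots kept and marked by crosses; green is Cy3, red Cy5, filled circles the treatment arrays and open triangles the direct arrays. Mutant cells lie above wild type cells for Ccl2, Ccl7 and Cx3cl1 and below for Cxcl12 in both dyes, whereas the Ccl21c levels of untreated mutant cells split by dye.

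The receptors of these ligands mostly differed little between untreated mutant and wild type cells. Of 23 receptor genes, 2 were higher and 2 lower in the mutant, with a median log2 ratio of −0.01. Ackr3, the scavenging receptor of Cxcl12, was higher (1.73, adjusted p = 0.0035), and Cxcr5, the receptor of Cxcl13, gave 1.07 (adjusted p = 0.042; limma). Ccr10, a receptor of Ccl27 and Ccl28, was lower (−1.89, adjusted p = 0.0031), but its ratios were negative in both treatments too (−2.92 and −1.82), and Ccr1l1 gave −0.81 (adjusted p = 0.017). Besides Ackr3, some known receptors of called ligands are named here after their values were seen, and none of these was called. They gave −0.10 for Ccr2, −0.40 for Cxcr4, 0.49 for Ccr6, −0.29 for Cxcr2, −0.07 for Cx3cr1 and −0.03 for Cxcr6. Ccr1 gave 0.004, Ccr4 0.10, Ccr7 0.31 and Ccr9 0.23. Cx3cr1, Cxcr6, Ccr7 and Ccr9 were never well above background in Cy5, so a difference in them could be missed.

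Among 28 measured NF-kappaB subunits, inhibitors and inflammatory targets, 5 were higher and 4 lower in untreated mutant cells (median 0.09). For this and the following lists, 9.83% of all probes were higher and 9.78% lower, with a median of −0.00. Tnfaip2 gave 2.55 (adjusted p = 6.1e-04) and the feedback inhibitor Tnfaip3 1.66 (adjusted p = 0.0039), while the macrophage growth factor Csf1 gave −1.81 (adjusted p = 0.0024) and Il1rl1, a receptor of the interleukin 1 family, −3.14 (adjusted p = 0.0015; limma). Ptgs2, which makes prostaglandins, was lower in both measures (−1.94, adjusted p = 0.014, and −2.70 within Cy3, adjusted p = 0.0065). Of 10 interferon regulators and targets 6 were higher and 0 lower (median 1.62), whereas none passed within Cy3 (median 0.76). The 4 of smallest p, not of largest ratio, were Ifit3 at 2.40, Gbp2 at 2.03, Ifit1 at 1.63 and Irf1 at 1.62. The interferon-induced ligands Cxcl9, Cxcl10 and Cxcl11 were at 0.09, 0.38 and 0.14 in the same comparison and were not called. Of 9 proteases and proteoglycans that cut or hold chemokines, 2 were higher (Mmp14, 0.97, and Mmp2, 1.43) and 2 lower (Adam10, which sheds Cx3cl1 and Cxcl16, −2.32, and Sdc1, −0.998). The single other chemokine measured, Xcl1 of lymphocytes, gave −0.66 and was not called.

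The cells carried the fibroblast markers of their label: all 10 were above background in untreated cells on every array. In untreated cells 6 of 10 fibroblast markers were higher in the mutant and 0 lower (median 1.08, with Dcn at 2.71), and their summed level was 53095 to 55108 in wild type and 84011 to 101283 in mutant cells on the direct arrays. Of 18 leukocyte markers 1 was higher (Mrc1, 1.57) and 0 lower (median 0.07), with sums of 1102 to 1273 in wild type and 1101 to 1492 in mutant cells. Of 6 genes listed as mast cell markers 2 were lower in the mutant (Mcpt8, −4.83, and Mcpt4, −0.99) and 0 higher (median −0.17). The others gave −0.44 for Kit, 0.10 for Cpa3, 0.15 for Fcer1a and 0.18 for Ms4a2. The list summed to 1024 to 1049 in wild type and 160 to 212 in mutant cells. Mcpt8 was the brightest of the 6, with a mean log2 intensity of 7.53, and the others lay between 4.17 and 5.59. These sums therefore lean on 1 gene and do not describe the list as a whole. Of 7 endothelial markers 1 was higher (Cd34, 2.67), with sums of 230 to 278 against 413 to 1021. The others, none called, gave −0.57 for Pecam1, 0.02 for Cdh5, 0.33 for Kdr, −0.31 for Tek, 0.42 for Tie1 and 0.21 for Emcn. Cd34 was the brightest, with a mean log2 intensity of 8.19, and the others lay between 3.64 and 4.78. The endothelial sums therefore lean on Cd34 and do not describe that list as a whole. Of 2 epithelial markers none was called, with sums of 69.3 to 77.5 against 56.9 to 59.6. The part of cell composition in the chemokine differences was not tested, and fewer cells of a type cannot be told apart from less RNA per cell.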

How the data were processed

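RNA of 6 hybridisations was measured on two-colour Agilent whole mouse genome arrays. The authors scanned the arrays and extracted each spot with Feature Extraction, version 7.5.1 per the file headers; the deposited files hold mean and background intensity in each dye, flags as a score of 0 or 1, and log10 ratios. A deposited series table holds log2 ratios, which correlated at r = 0.9995 or more with those computed here. From the deposited intensity values the median local background was subtracted, ratios were normalised by loess within each array, control and outlier spots were left out, and spots of a probe were averaged. limma 3.58.1 in R 4.3.3 (lmFit, eBayes) fitted all 6 arrays, with 1 coefficient for each of the 3 comparisons, 3 residual and 3.98 prior degrees of freedom, and Benjamini-Hochberg adjustment over all probes. Single channels were scaled with Aquantile and compared 2 arrays against 2, or 1 against 2 or 1 against 1 where outlier spots were left out; a lone array was then assumed to vary like the others. Labels name total RNA and the study's methods cytoplasmic RNA. By rule, array values were given for chemokine genes with a probe called in any of the 6 tests and measured on both its arrays, and for the 3 probes with the largest change in each comparison at a mean log2 intensity of at least 6; list genes named are at most 4 per list, of smallest p, and any other gene was chosen after its values were seen. Chemokine members and gene lists were chosen with earlier results of these data known. The fits were tested on simulated data. Of the chemokine probes 37 of 43 matched RefSeq by accession. Upstream sequences are from RefSeq (GRCm38.p6). The methods describe the replicates as different biological samples. Alternatives covered background, outlier spots, normalisation, intensity filters, each array left out, a dye term and a replicate block; figures were drawn with matplotlib 3.10.9 in Python 3.11.15.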

Additional observations from a re-analysis of the deposited data

Results flagged for a closer look

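For 4 of the 17 probes named by rule the H2O2 response had one sign on both wild type arrays and the opposite sign on both mutant arrays. The difference of the responses, mutant minus wild type, was tested with limma and passed for none of these 4 after adjustment over all probes. It was 1.04 for Ccl7 (A_51_P436652, adjusted p = 0.73) and 0.65 for Cx3cl1 (adjusted p = 0.83). It was −1.05 for Cxcl12 (A_51_P172502, adjusted p = 0.64), whose wild type ratios were both within 0.04 of 0, and 0.33 for Cxcl16 (A_52_P99888, adjusted p = 0.94). Outside those 17, Ccl25 (A_52_P730698) and Cxcl5 showed the same pattern of signs, with differences of −0.34 (adjusted p = 0.94) and −0.91 (adjusted p = 0.80). Neither probe was well above background in Cy5, the dye of the treated cells, on any array, so these signs rest on dim signal.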

How the results depend on the processing

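All 18 chemokine calls between untreated genotypes had the same sign under every alternative that gave them a value, apart from the reading of the dyes in the sample labels, which keeps 18 calls and turns them to 8 higher and 10 lower. Their number fell to 9 with Feature Extraction ratios, 10 at a mean log2 intensity of at least 6, 9 on the direct arrays alone, 6 at the study's thresholds, 3 with separate channels and a dye term and 7 when that fit also kept outlier spots, an alternative chosen after seeing the data. Leaving out 1 array gave 12 to 21. In wild type cells the response gave 4 calls with normexp, 2 with outlier spots kept, with the authors' table or at a mean log2 intensity of at least 6, 1 among probes well above background, 11 on its own arrays and 0 to 11 with 1 array left out. In mutant cells it gave 3 with median centring, 8 on its own arrays and 0 to 9 with 1 array left out. The difference of responses gave 2 on its own arrays and 0 to 2 with 1 array left out. Within Cy3 normexp gave 0 and leaving out 1 array 0 to 7. Within Cy5 normexp gave 0, keeping outlier spots 5 and leaving out 1 array 0 to 6; the cause was not tested. Ccl21c in mutant cells turned to 0.20 with a dye term and outlier spots kept. Only the fits on own arrays and the study's thresholds have the share of all probes called, given further up. The other counts in this section show how chemokine calls moved with the setting. They do not set chemokines apart from other probes. Arrays of the same replicate number did not deviate together (r = −0.05). With 2 arrays in each comparison, this value cannot show whether the samples were paired. With the replicate block the untreated comparison gave 12 calls, the 2 responses and their difference 0, and the tests within Cy3 and Cy5 0 and 2. A block for slide or scan could not be run, since each array has its own slide and the files used here give no scan date. The 2 arrays in each comparison, and Cy5 signal above background for 15 to 29 of 43 chemokine probes on an array, limit what could be detected.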
